A study of Mus musculus with 75 samples.

Results

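Cells make most of their ATP with the respiratory chain, whose nuclear-encoded genes were read here in nuclei of 2 neuron types of the mouse nucleus accumbens. The genes were the protein-coding entries of the count table with a mouse symbol that begins with Ndufa, Ndufb, Ndufc, Ndufs or Ndufv and a number, is Sdha, Sdhb, Sdhc or Sdhd, or begins with Uqcr, with Cox4 to Cox8 or with Atp5. The rule used symbols and gene type and no measured value. It took 85 of 55401 identifiers: 37 for complex I, 4 for complex II, 8 for complex III, 18 for complex IV and 18 for complex V. The symbol Atp5o stood on 2 of the 85 identifiers. One was the gene of 6474 bases, and the other (ENSMUSG00000116933.1) was a gene model of 242585 bases that runs across Itsn1, Cryzl1 and Donson and is called the long Atp5o model below.

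The nuclei came from male mice in which a Cre-dependent green fluorescent tag on L10a (LSL-eGFP::L10a) was switched on by Cre from either a D1-Cre or a D2-Cre line, so a nucleus was marked by past Cre activity and not by the receptor itself. Mice of both lines had daily intraperitoneal saline or cocaine (20 mg/kg) for 10 days, 30 days in the home cage, and then a saline or cocaine challenge 1 h before death. Group names give the line, then a letter for the repeated treatment and one for the challenge (S saline, C cocaine). D1_SS held 10 libraries, D1_SC 9, D1_CS 8, D1_CC 10, D2_SS 9, D2_SC 9, D2_CS 10 and D2_CC 10. All 8 groups carried the tag and a Cre transgene and went through 10 days of injections and a challenge injection. Strain background and age were not in the sources used here, and the labels do not say whether each library was 1 animal or a pool, so p-values measure the spread between these libraries.

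Complex I (NADH dehydrogenase) and complex II (succinate dehydrogenase) pass electrons from nutrients to ubiquinone, complex III (cytochrome bc1) passes them to cytochrome c, and complex IV (cytochrome c oxidase) passes them to oxygen. Complexes I, III and IV pump protons on the way, and complex V (ATP synthase) uses the return of the protons to make ATP. The genes described here are transcribed in the nucleus, and their products are made in the cytosol and imported into mitochondria. There the products for complexes I, III, IV and V join a few core subunits made from mitochondrial DNA. Neurons depend heavily on this pathway to pay for ion pumping.

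The libraries differed widely before any group was compared. Total counts ran from 19825 to 34870414 with a median of 14893119, and 4 libraries held fewer than 1000000 counts. Reads over olfactory and vomeronasal receptor genes, which are silent in these neurons, gave an even background density, and such a background would account for 4.01% to 70.8% of all counts of a library. In the 71 libraries of 1000000 counts or more, it would account for 0.723% to 61.9% of the counts on the 85 genes, with a median of 21.8%. Drd2 stood above Drd1 in 16 of the 37 libraries labelled D1 (2 D1_SS, 6 D1_SC, 4 D1_CS and 4 D1_CC), against the label, and Drd1 stood above Drd2 in 0 of the 38 libraries labelled D2. By rules on depth, number of genes with reads, correlation with the line and the Drd1 to Drd2 ratio, 19 libraries failed a quality check. Group names below follow the labels throughout. Of 57 marker genes for neuron types, glia, vessels and choroid plexus, 0 were at 0 in every library of any group.

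Promoters of the 85 genes shared letters that the choice by symbol did not use. RefSeq's table (GRCm38.p6) held a promoter window of 300 bases, 250 before and 50 after the start, for 67 of the 85 identifiers, or 66 symbols. Windows were searched on both strands for the sites of nuclear respiratory factor 1 (NRF1; GCGCA and GCGC with any 1 base between), of ETS factors such as GABP (CCGGAAG), of YY1 (AANATGGCG) and of Sp1 (GGGCGG). These factors are textbook regulators of respiratory chain genes, and none of the 4 motifs contains another. The NRF1 letters stood in 17 of 66 windows (25.8%), against 5.19% of the windows of 27025 genes. The ETS letters stood in 16 windows (24.2% against 9.93%), the YY1 letters in 10 (15.2% against 2.76%), and the Sp1 letters in 26 (39.4% against 38.2%). A match is a description of letters and not of a bound site.

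The 250 bases upstream of 4 members with an NRF1 match are shown because the members come from 4 complexes and each rose in the comparison of D1_CC with D1_CS described below. Capitals mark the NRF1 letters on either strand, and coordinates are GRCm38.p6. Cox6a1 encodes the common form of a complex IV subunit, Sdha the flavoprotein of complex II, Atp5h a subunit of the complex V stalk and Ndufs5 a complex I accessory subunit.
Cox6a1, chr5:115348959-115349208, minus strand: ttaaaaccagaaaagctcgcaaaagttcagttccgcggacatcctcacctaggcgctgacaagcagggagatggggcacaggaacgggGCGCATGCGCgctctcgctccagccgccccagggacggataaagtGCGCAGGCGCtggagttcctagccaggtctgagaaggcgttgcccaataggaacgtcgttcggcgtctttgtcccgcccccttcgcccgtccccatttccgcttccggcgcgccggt
Sdha, chr13:74350241-74350490, minus strand: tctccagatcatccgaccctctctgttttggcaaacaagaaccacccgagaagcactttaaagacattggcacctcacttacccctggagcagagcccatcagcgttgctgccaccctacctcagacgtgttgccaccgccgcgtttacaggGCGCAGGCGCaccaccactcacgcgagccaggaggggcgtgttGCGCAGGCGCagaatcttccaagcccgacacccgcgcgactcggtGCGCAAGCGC
Atp5h, chr11:115419920-115420169, minus strand: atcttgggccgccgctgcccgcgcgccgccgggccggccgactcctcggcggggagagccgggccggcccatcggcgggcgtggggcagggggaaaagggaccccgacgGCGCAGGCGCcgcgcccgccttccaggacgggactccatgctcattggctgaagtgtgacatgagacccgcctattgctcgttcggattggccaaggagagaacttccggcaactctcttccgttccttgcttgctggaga
Ndufs5, chr4:123718187-123718436, minus strand: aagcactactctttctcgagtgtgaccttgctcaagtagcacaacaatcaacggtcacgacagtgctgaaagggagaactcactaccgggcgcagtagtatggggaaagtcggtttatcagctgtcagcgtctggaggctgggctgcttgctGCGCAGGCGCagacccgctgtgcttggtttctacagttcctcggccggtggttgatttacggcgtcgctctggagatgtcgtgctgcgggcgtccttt
Sdha held 3 stretches in capitals, Atp5h and Ndufs5 held 1 each, and Cox6a1 held 2, one of which matches on both strands.

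Levels between genes were compared as counts per kilobase of gene span per 1000000 counts of the library, taken as the median over the 71 libraries of 1000000 counts or more. The 2 highest levels belonged to subunits in the catalytic part of complex V. They were 8.53 for Atp5a1 (alpha subunit, GRCm38 chr18:77773729-77782869) and 7.14 for Atp5b (beta subunit, chr10:128083273-128090391). The next within complex V was 5.86 for Atp5k, a subunit of the membrane part. In complex IV the 3 highest were Cox5b at 6.01, Cox7c at 4.08 and Cox8a at 3.60, all small nuclear-encoded subunits of short genes. In complex I they were Ndufb10 at 4.33, Ndufv1, which carries the NADH-binding flavin, at 3.01, and Ndufa6 at 2.33. Complex III was led by Uqcrq at 2.88, Uqcr10 at 2.31 and Uqcrb at 2.22, and complex II by Sdha at 1.84, Sdhb at 1.62 and Sdhd at 1.49. Counts came from whole genes with introns, so a long intron lowers this figure.

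Set against the background density of the same libraries, Atp5a1 stood at 33.5 times, Atp5b at 29.6 times and Cox5b at 23.1 times the background in the median library. In contrast, 10 of the 85 stood below 2 times: Cox6b2 (0.974), Cox7b2 (1.17), Ndufa4l2 (1.25), Cox6a2 (1.27), the long Atp5o model (1.29), Cox8c (1.32), Cox4i2 (1.56), Cox7a1 (1.62), Cox8b (1.67) and Atp5s (1.82). Most of these are alternative isoforms known from muscle, testis, lung or low oxygen, whose partners in brain are Cox6b1, Cox7b, Ndufa4, Cox6a1, Cox4i1, Cox7a2 and Cox8a. At that density a transcript could not be told from background in most libraries. Several genes overlap others on the genome, such as Cox4i1 with Emc8, and their counts are uncertain, since no source used here says how featureCounts treated strand. The same holds for the many members with processed pseudogene copies.

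**Figure D1:**
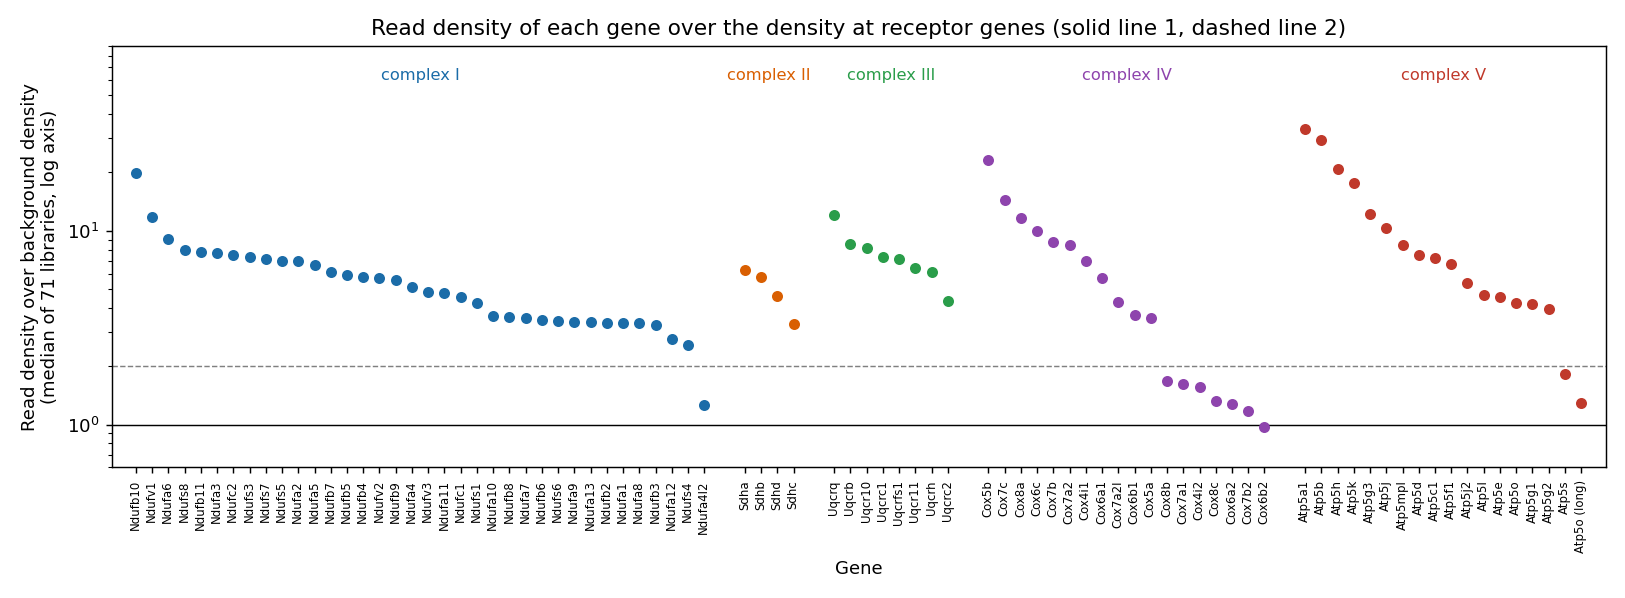
Read density of each of the 85 genes divided by the background density at receptor genes (median of 71 libraries, log axis), grouped by complex, with 1 complex I gene not drawn. Atp5a1 is highest at 33.5, and 10 genes lie below the dashed line at 2.

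The summed level of the 85 genes varied widely from library to library. Their summed count per 1000000 counts (CPM) had a lowest, median and highest value of 904, 2102 and 3438 in D1_SS, of 611, 1194 and 3088 in D1_SC, of 1104, 1304 and 1420 in D1_CS, and of 1246, 1878 and 5239 in D1_CC. In D2_SS the 3 values were 1336, 2091 and 3178, in D2_SC 1226, 1358 and 1576, in D2_CS 1176, 1758 and 3572, and in D2_CC 1157, 1280 and 2833. D1_CS and D2_SC were narrow groups, D1_CS lying inside the ranges of D1_SS and D1_SC, and D2_SC inside those of D2_CS and D2_CC. The 2 highest libraries of the series were D1_CC 1 at 5239 and D1_CC 3 at 5082. One or the other held the highest CPM for 73 of the 85 genes among D1 libraries, and for 64 of 85 among all libraries of 1000000 counts or more. These counts were not made over all genes.

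**Figure D2:**
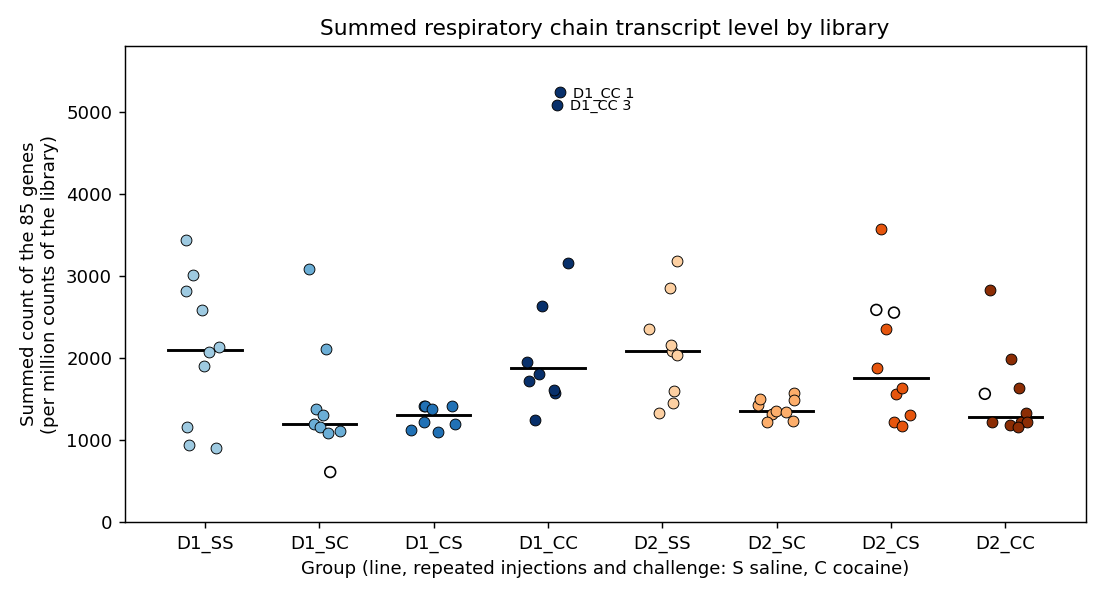
Summed count of the 85 genes per 1000000 counts in each of the 75 libraries by group; bars are group medians and open circles are libraries of fewer than 1000000 counts. D1_CC 1 and D1_CC 3 sit at 5239 and 5082, above the other 73 libraries.

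Other gene groups moved along with that sum. The summed CPM of cytosolic ribosomal protein genes was 4986 in D1_CC 1 and 4462 in D1_CC 3, against 476 to 1092 in D1_CS and a median of 1267 in D1_CC. Those 2 libraries held a background share of 16.4% and 4.01%, where the D1_CS median was 63.4% and the D1_CC median 55.2%. Genes over 100 kb took 38.6% and 34.1% of their counts, against 51.1% to 60.1% in D1_CS. After subtraction of the background and division by the remaining counts, the members' sum had a median of 1892 (1229 to 2349) per 1000000 in D1_CS and of 3129 (1824 to 6087) in D1_CC. Fewer cells of a type and less RNA per cell cannot be told apart in such sorted pools, and the part of these library features in the results was not tested beyond the values given here.

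**Figure D3:**
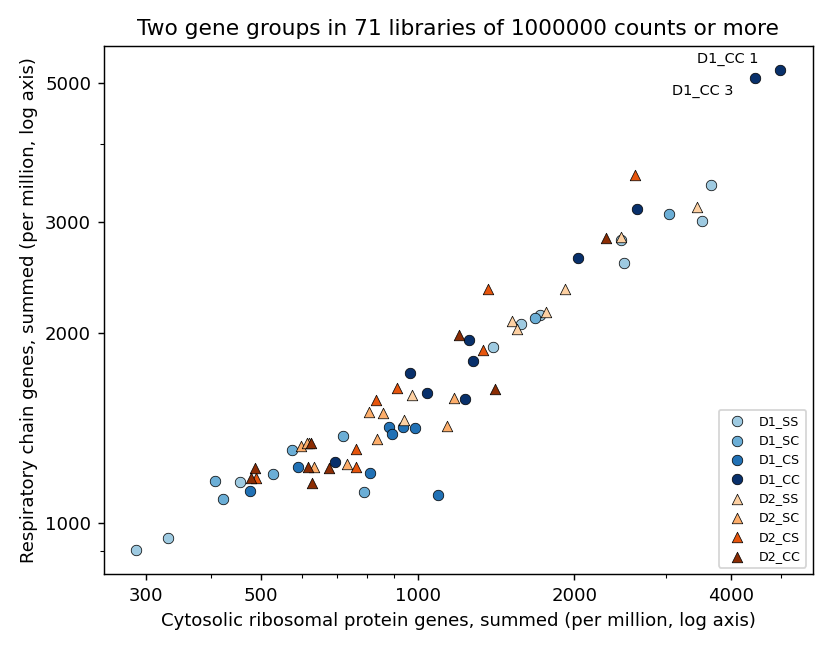
Summed CPM of the 85 respiratory chain genes (vertical) against that of cytosolic ribosomal protein genes (horizontal) in the 71 libraries of 1000000 counts or more, both on log axes; colours are groups, circles D1 and triangles D2. The sums rise together across groups, and D1_CC 1 and D1_CC 3 lie at the top right.

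Mice with repeated cocaine were compared by challenge in the D1 line, cocaine (D1_CC) against saline (D1_CS). Members of all 5 complexes rose in D1_CC: 61 of the 84 members tested passed as higher and 0 as lower, where 8.28% of all 37721 genes tested rose and 0.0292% fell. The median log2 change of the 84 was 1.63, beside -0.09 over all genes tested. By complex, 27 of 37 rose in complex I (median 1.51), 3 of 4 in complex II (1.38), 7 of 8 in complex III (2.01), 9 of 17 in complex IV (1.39) and 15 of 18 in complex V (1.72). A gene was called when edgeR's quasi-likelihood test gave an adjusted p (Benjamini-Hochberg over all genes) below 0.05, and changes are TMM-scaled fits given with their standard error (SE).

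The calls were lost without either of 2 libraries, though the median log2 change stayed above 1. Without D1_CC 1 the count of members called was 0 with a median log2 change of 1.33, and without D1_CC 3 it was 0 with a median of 1.26. Of all genes tested 0 were called in either fit. Without both libraries the count was 0 and the median 0.73. The count was 32 without D1_CS 2 and 38 without D1_CS 7, where 1022 and 1445 of all genes rose. It was 0 without all quality-failing libraries, D1_CC 3, 4 and 9 among them, where the median log2 change was 1.45. It was 17 with DESeq2's size factors in place of TMM (median 1.24) and 0 with library totals (1.15), which both put the median of all genes at -0.25, or with the background share as a covariate (0.77). In plain CPM, for the summed level and for each complex, 9 of 10 D1_CC libraries exceeded all 8 D1_CS libraries, D1_CC 8 being the exception. Gene by gene, at least 5 of the 10 D1_CC libraries exceeded all D1_CS libraries for 68 of 85 members, with 0 members free of overlap. This count was not made over all genes, so it cannot be read as particular to the members.

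**Figure D4:**
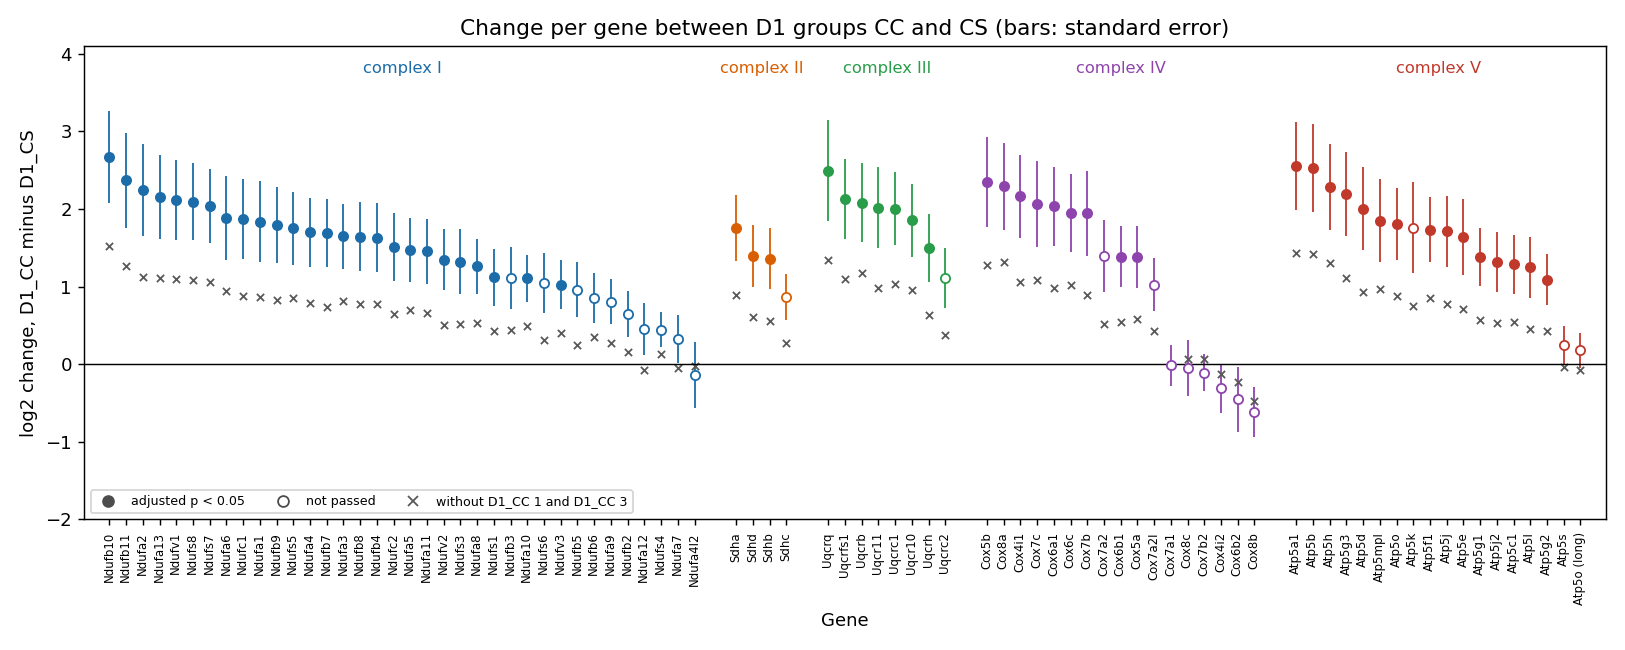
Fitted log2 change, D1_CC minus D1_CS, for the genes tested, sorted within each complex, with 1 complex I gene not drawn; bars are SE, filled points have an adjusted p under 0.05, and crosses give the fit without D1_CC 1 and D1_CC 3. Filled points run from 1.03 to 2.67, and most crosses lie above 0 but below the points.

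Complex I was led by Ndufb10, a membrane-arm accessory subunit (chr17:24722060-24724478). Its lowest, median and highest CPM were 5.69, 8.20 and 10.7 in D1_CS and 6.99, 18.9 and 86.5 in D1_CC. The groups overlapped at the low end, and D1_CC 1 and D1_CC 3 were the high libraries, at 86.5 and 80.2. The log2 change was 2.67 ± 0.595 (SE; adjusted p = 0.017), and 1.53 (adjusted p = 0.915) without those libraries. Ndufb11, another membrane-arm subunit, rose by 2.37 ± 0.614 and the NADH-binding Ndufv1 by 2.12 ± 0.512. Of the core subunits, the iron-sulfur subunit Ndufs1 rose by 1.12 ± 0.365 (adjusted p = 0.0468). Ndufa4, counted here with complex I by its symbol and now placed with complex IV, rose by 1.70 ± 0.44. Ndufs4, an accessory subunit whose loss gives a Leigh-like disease in mice, spans 100464 bases and did not pass, with 74.7, 84.5 and 91.6 CPM in D1_CS, 84.4, 91.7 and 118 in D1_CC, and a log2 change of 0.45 ± 0.222 (adjusted p = 0.278).

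In complex II the flavoprotein gene Sdha had 25.1, 45.0 and 50.6 CPM at the lowest, median and highest in D1_CS and 40.3, 71.7 and 227 in D1_CC. Sdha thus overlapped between groups, with D1_CC 3 and D1_CC 1 highest at 227 and 208. It rose by 1.76 ± 0.426 (adjusted p = 0.017). The membrane anchor gene Sdhd rose by 1.39 ± 0.394 and the iron-sulfur gene Sdhb by 1.36 ± 0.391. Sdhc, the other anchor, had a log2 change of 0.87 ± 0.296 (adjusted p = 0.0586) and did not pass.

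In complex III the core gene Uqcrc1 had 13.9, 21.7 and 26 CPM in D1_CS and 21.6, 36.1 and 126 in D1_CC, with overlap at the low end and again D1_CC 3 and D1_CC 1 on top (126 and 125). It rose by 2.0 ± 0.471 (adjusted p = 0.017). The small ubiquinone-binding subunit Uqcrq rose by 2.50 ± 0.65 and the Rieske iron-sulfur protein Uqcrfs1 by 2.13 ± 0.516. The other core gene, Uqcrc2, did not pass at 1.11 ± 0.387 (adjusted p = 0.0655).

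In complex IV 9 of 17 members rose. Cox4i1, the common form of subunit 4, had 3.93, 7.23 and 8.66 CPM in D1_CS and 6.99, 13.2 and 55.0 in D1_CC. Its groups overlapped at the low end and D1_CC 1 and D1_CC 3 were highest, at 55.0 and 49.4. Cox4i1 rose by 2.16 ± 0.539 (adjusted p = 0.017), Cox5b by 2.34 ± 0.582, Cox8a by 2.29 ± 0.558, Cox7c by 2.06 ± 0.555, Cox6c by 1.94 ± 0.502 and Cox5a by 1.39 ± 0.401. Cox7a2 (1.39 ± 0.467, adjusted p = 0.0542) and Cox7a2l (1.03 ± 0.344, adjusted p = 0.0548), a common subunit and its relative, did not pass. The other 6 that did not pass were alternative forms near background, where a change could hardly be read: the log2 change was -0.31 ± 0.315 for Cox4i2, -0.62 ± 0.321 for Cox8b and -0.11 ± 0.24 for Cox7b2. Cox4i2 had 5.09, 8.20 and 9.29 CPM in D1_CS and 0.853, 6.77 and 8.89 in D1_CC, with broad overlap.

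Complex V held the 2 members with the most counts per kilobase of gene span. Atp5a1 had 26.8, 52.2 and 61.1 CPM in D1_CS and 53.0, 115 and 508 in D1_CC. Of the D1_CC libraries only D1_CC 8, at 53.0, lay inside the D1_CS range, and D1_CC 3 (508) and D1_CC 1 (441) were again far above the rest. The log2 change was 2.55 ± 0.569 (adjusted p = 0.017) with all libraries, and 1.43 (adjusted p = 0.915) without those 2. Atp5b had 19.9, 40.0 and 43.1 CPM in D1_CS and 33.7, 85.1 and 366 in D1_CC, and rose by 2.53 ± 0.566. Of the other parts, Atp5h in the stalk rose by 2.28 ± 0.551, Atp5g3, a gene for the proton-carrying c ring, by 2.19 ± 0.544, and Atp5e, the epsilon subunit, by 1.64 ± 0.489.

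The median change was smaller in longer genes. Of members under 5 kb, 21 of 28 rose with a median log2 change of 1.88, while 791 of 3231 protein-coding genes of that span rose with a median of 0.00. At 5 to 10 kb 26 of 29 members rose (median 1.70), at 10 to 30 kb 12 of 22 (1.19), and over 30 kb 2 of 5 (0.45). Of all protein-coding genes in those 3 classes, 617 of 3589 rose (median -0.05), 860 of 6446 (0.15) and 247 of 7662 (-0.02). The isoforms near background Cox6b2, Cox7a1, Cox8b, Cox8c and Ndufa4l2 were among the members under 5 kb that did not pass.

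**Figure D5:**
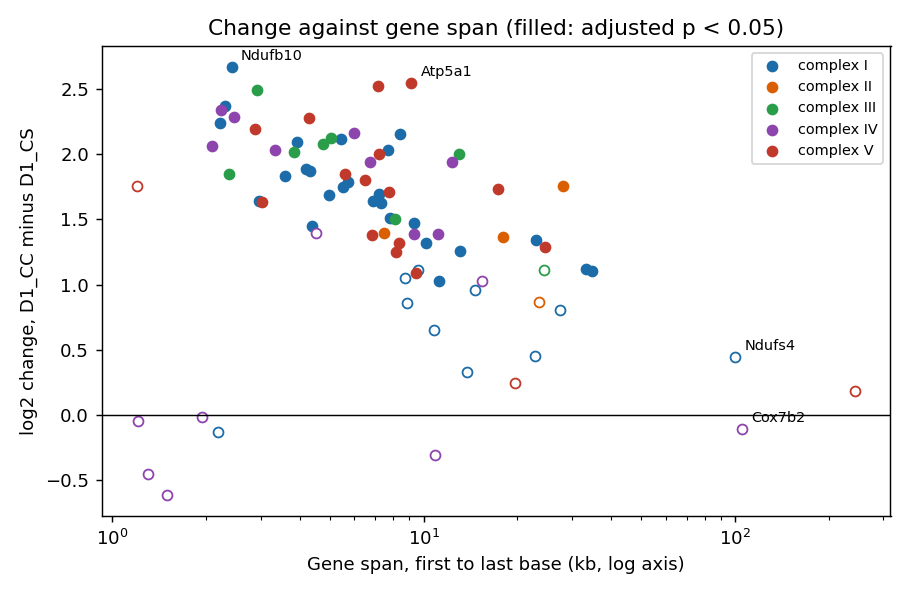
Log2 change of the members, D1_CC minus D1_CS, against gene span on a log axis, with 1 complex I gene not drawn; colours are complexes and filled points have an adjusted p under 0.05. Ndufb10 is highest at 2.67, and the long genes Ndufs4 and Cox7b2 lie at 0.45 and -0.11.

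Members with the NRF1 letters in the promoter rose in 15 of 17 cases (median log2 change 1.75) and those without in 35 of 49 (1.5). For the ETS letters the counts were 14 of 16 (1.66) and 36 of 50 (1.49), for YY1 6 of 10 (1.52) and 44 of 56 (1.57), and for Sp1 20 of 26 (1.39) and 30 of 40 (1.75). No test was run on these counts.

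Lists of genes that work beside the chain differed in this comparison, where 8.28% of all genes tested rose. Of 52 carriers and assembly factors 17 rose and 0 fell (median log2 change 0.79), led by the complex IV assembly factor Coa3 (2.48 ± 0.635), the electron carrier Cycs (2.37 ± 0.613) and Cyc1 (2.34 ± 0.585), the cytochrome c1 of complex III. Of the 13 protein genes of the mitochondrial genome 11 were tested and 9 rose (median 2.14), with mt-Nd4l at 2.60 ± 0.789 and mt-Co1 at 2.28 ± 0.616. Mitochondrial DNA lies outside the nucleus and the libraries came from sorted nuclei, so these reads cannot be taken as nuclear RNA. How they came to be in the libraries was not tested. Of 13 citric acid cycle genes 7 rose (1.05), with Mdh2 at 2.22 ± 0.476 and Idh3b at 2.13 ± 0.484. Of 15 regulators of mitochondrial biogenesis 1 rose, a share no larger than that of all genes. It was Tfam (1.03 ± 0.338), which packages mitochondrial DNA. Cytosolic ribosomal protein genes rose in 58 of 75 cases (1.92) and mitochondrial ribosomal protein genes in 38 of 78 (1.12). Without D1_CC 1 and D1_CC 3, the log2 change was 1.39 for Coa3, 1.24 for mt-Co1 and 0.40 for Tfam, none of which passed.

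Marker genes moved between the same groups. Of 6 D1 neuron markers 3 rose, among them Drd1 (1.81 ± 0.565), and of 6 D2 neuron markers 3 rose, among them Penk (2.09 ± 0.639). Of 6 oligodendrocyte markers 2 rose, 1 of 6 interneuron markers rose, and 0 of 6 astrocyte markers passed. The summed CPM of the D2 markers was 134 to 1006 in D1_CS (median 246) and 194 to 2310 in D1_CC (median 1058). That of the oligodendrocyte markers was 107 to 198 in D1_CS and 180 to 456 in D1_CC. The part of these cell types in the members' rise was not tested. In the D1 libraries with more Drd1 than Drd2, the median log2 change of members was 1.82 and 0 were called.

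Cocaine challenge after cocaine (D1_CC) was also set against cocaine challenge after saline (D1_SC), which shares the D1_CC libraries with the comparison above; the comparisons with D1_SS and the interaction share libraries with both. Here 3 members rose and 1 fell, where 2.62% of all genes tested rose and 7.86% fell. Sdhd had 1.02, 6.12 and 21.5 CPM in D1_SC and 10.1, 14.8 and 39.3 in D1_CC, with D1_SC 7 and the next highest D1_SC library, at 13.5, inside the D1_CC range. It rose by 1.22 ± 0.383 (adjusted p = 0.0355), Ndufb10 by 1.65 ± 0.553 (adjusted p = 0.0474) and Ndufs5 by 1.33 ± 0.445 (adjusted p = 0.047). The long Atp5o model fell by 0.65 ± 0.221 (adjusted p = 0.0499) on the log2 scale. The median of the 84 was 0.79, beside 0.19 over all genes. With voom the log2 changes of Sdhd, Ndufb10 and Ndufs5 were -0.13, -0.45 and -0.31 and the median of members was -0.47. The count was 58 with the background share as covariate, 25 with DESeq2, 13 with voom and 0 with the replicate block. Under these settings it is given without direction or the share of all genes, so it cannot be read as particular to the members. It also moved with single libraries: 0 remained without any one of D1_SC 1, 2, 3, 4, 5 or 9, while 10 members passed without D1_SC 8 and 31 without D1_SC 7. Of all genes, 1830 rose and 3559 fell without D1_SC 8, and 3608 rose and 4161 fell without D1_SC 7. The count of members was 1 without any of D1_CC 1, 3, 4 or 7, D1_CS 1, 2, 4, 5, 6 or 8, or D1_SS 1, 2, 3, 4, 6 or 7, and 2 without D1_CS 7.

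After repeated saline, the effect of a first cocaine challenge in the D1 line (D1_SC minus D1_SS) was called for 1 member, where 9.70% of all genes tested rose and 1.64% fell. That member was the long Atp5o model, with 99.0, 111 and 124 CPM in D1_SS, 79.8, 133 and 152 in D1_SC and a log2 change of 0.84 ± 0.222 (adjusted p = 0.0117). The 2 groups overlapped. This long model stood below 2 times the background density. Of all protein-coding genes over 30 kb, 1815 of 7662 rose (median 0.32), beside 100 of 3231 under 5 kb (median -0.19). Of the members, 62 of 84 had a fitted change below 0 and the median was -0.20. Under 5 kb the median was -0.49 for members and -0.19 for all protein-coding genes, and at 5 to 10 kb -0.22 and -0.14. At 10 to 30 kb the 2 medians were 0.03 and 0.08, and over 30 kb 0.55 and 0.32. The lean below 0 in short genes was thus not particular to the members. Fitted log2 changes were 0.55 ± 0.214 for Ndufs4, 0.90 ± 0.431 for Ndufa4l2, 0.57 ± 0.346 for Ndufs1 and -0.97 ± 0.595 for Uqcrq, none of which passed. Ndufa4l2, a gene near background, had 9.48 CPM in D1_SC 1 and 1.94 in the next highest library, D1_SC 3. Its log2 change went as low as 0.014 when 1 library was left out. The count was 0 without any of D1_SC 2, 4, 5 or 9, D1_SS 3 or D1_CS 5, and 2 without any of D1_SC 6, D1_SC 7 or D1_CC 3. Of all genes, 5553 rose and 4795 fell without D1_SC 6, 4977 and 2458 without D1_SC 7, and 4806 and 2122 without D1_CC 3.

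Repeated cocaine with a saline challenge (D1_CS minus D1_SS) gave 0 calls by edgeR's quasi-likelihood test, with 0.0% of all genes called. Still, 78 of 84 members had a fitted change below 0, with a median of -0.90 beside 0.06 over all genes, and 48 had an unadjusted p below 0.05. DESeq2 called 0 members, and limma voom with library weights called 79. Throughout, counts by unadjusted p, DESeq2, voom or the covariate fit are given without the share of all genes. They cannot be read as particular to the members. By complex the medians were -0.84, -0.69, -1.24, -0.80 and -1.0 from complex I to complex V. Uqcrq had 2.15, 20.3 and 53.2 CPM in D1_SS and 4.05, 6.66 and 8.82 in D1_CS. All D1_CS libraries thus lay inside the wide D1_SS range. Among the largest, the log2 change was -1.91 ± 0.635 for Uqcrq, -1.82 ± 0.575 for Ndufb10, -1.68 ± 0.567 for Cox5b, -1.60 ± 0.536 for Atp5h and -1.45 ± 0.492 for Cox6c. Ribosomal protein genes had a median summed CPM of 1650 in D1_SS and 886 in D1_CS, and the median background share was 45.1% and 63.4%. Their part was not tested beyond the covariate fit, in which the median change of members was -0.41.

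Repeated cocaine with a cocaine challenge against saline throughout (D1_CC minus D1_SS) gave 0 calls, with 0.0% of all genes called, 13 members at an unadjusted p below 0.05 and 0 calls by DESeq2 or voom. The median of members was 0.61, was -0.19 without D1_CC 1 and D1_CC 3, and was -0.31 with voom. Fitted log2 changes were 1.24 ± 0.497 for Atp5b, 1.20 ± 0.5 for Atp5a1 and 0.96 ± 0.386 for Sdha. The interaction, which asks whether the challenge acted otherwise after repeated cocaine than after saline, also gave 0 calls among members and 0.0% over all genes. Its smallest adjusted p was 0.0527, the median of members was 1.74, and 65 members had an unadjusted p below 0.05. How many of all genes had such a p is not given here, so the 65 cannot be read as particular to the members. DESeq2 called 51 and voom 0. Leaving out single libraries let members pass: 19, 24, 36 and 20 without D1_CC 5, 6, 8 and 9, 6, 44 and 28 without D1_SC 6, 7 and 8, and 33, 36 and 25 without D1_SS 8, 9 and 10. In those fits the rises over all genes ran from 199 without D1_SC 6 to 1167 without D1_SC 7. The falls ran from 260 without D1_CC 9 to 1350 without D1_SC 7.

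In the D2 line a first cocaine challenge (D2_SC minus D2_SS) gave 0 calls by edgeR with 0.0% of all genes called. The fitted change was below 0 for 77 of 83 members, with a median of -0.46 beside -0.03 over all genes, 25 unadjusted p-values below 0.05, 0 calls by DESeq2 and 69 by voom. Atp5mpl, a small subunit of the complex V membrane part, had 9.12, 25.7 and 48.8 CPM in D2_SS and 2.99, 8.89 and 16 in D2_SC. The lowest D2_SS libraries overlapped with the highest D2_SC libraries. Its log2 change was -1.33 ± 0.37 (adjusted p = 0.647), beside -1.25 ± 0.41 for Uqcrq, -1.25 ± 0.443 for Uqcr10, -1.01 ± 0.364 for Cox6c and -1.0 ± 0.347 for Ndufa4. Ribosomal protein genes had a median summed CPM of 1553 in D2_SS and 806.5 in D2_SC.

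Repeated cocaine gave a single call in D2 nuclei after a saline challenge (D2_CS minus D2_SS), Cox7a1, the heart and muscle form of a complex IV subunit, where 0.0859% of all genes tested rose and 0.0% fell. Cox7a1 had 0.552, 1.03 and 2.06 CPM in D2_SS and 0, 0.699 and 98.0 in D2_CS. One library, D2_CS 4, held 134 of its 1367040 counts on this gene, while the next highest had 2.055 CPM. The log2 change was 4.01 ± 0.816 (adjusted p = 0.0268) with D2_CS 4 and 0.07 (adjusted p = 1.00) without it. Sdhb was highest in D2_CS 6, with 19 of 26297 counts, and had a log2 change of 0.95 ± 0.398. The call was also lost without any of D2_SS 1, 2, 3, 5, 6, 7 or 8. The median of the 83 members was -0.12, with 58 below 0. DESeq2 called 0 members, while voom called 69, all lower in D2_CS, with a median of -0.92 and a log2 change of -0.81 for Sdhb.

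The same library set the single fall in D2_CC minus D2_CS, Cox7a1 at -3.96 ± 0.807 (adjusted p = 0.0281), where 0.252% of all genes tested fell and 0.0% rose. Without D2_CS 4 its log2 change was -0.02. Sdhb (-1.36 ± 0.396, adjusted p = 0.128) did not pass. DESeq2 and voom called 0 members, and the median of members was -0.42. The count was 0 without any of D2_CC 1, 2, 4, 5, 6, 7, 8 or 9, 2 without D2_CC 3, D2_CS 2 or D2_CS 5, and 3 without D2_CS 7, 8 or 10. In the fits with 2 or 3, the falls over all genes ran from 98 without D2_CC 3 to 361 without D2_CS 8. In D2_CC minus D2_SS 0 members were called (0.0% of all genes), with 78 of 83 below 0, a median of -0.51, 17 unadjusted p-values below 0.05, 0 calls by DESeq2 and 74 by voom. The log2 change was -1.01 ± 0.382 for Cox7b and -0.86 ± 0.343 for Ndufc2. D2_CC minus D2_SC also gave 0 calls (0.0% of all genes; 0 unadjusted p-values below 0.05, and 0 calls by DESeq2 and voom), with a median of 0.03. The D2 interaction gave 0 (0.0%; 2 unadjusted, 0 by DESeq2 and 14 by voom).

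Between lines, D1 and D2 nuclei of mice with saline throughout gave 0 members called, where 0.0255% of all genes were called. The median of 85 members was -0.06, 0 had an unadjusted p below 0.05, and DESeq2 and voom called 0. Ndufa12, a complex I subunit, had the smallest p, with a log2 change of -0.43 ± 0.323 (adjusted p = 1.00). After a first cocaine challenge (SC) 0 were called (1.17% of all genes; 0 unadjusted, 0 by DESeq2 and 59 by voom) and the median was 0.24. The difference between lines in that first response gave 0 members (0.028% of all genes; 0 unadjusted, 0 by DESeq2 and voom).

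After repeated cocaine and a saline challenge (CS), 9 members were lower in D1 than in D2 nuclei and 0 were higher, where 3.55% of all genes tested were lower and 0.0459% higher. The median of members was -1.04, beside 0.04 over all genes. Atp5a1 had 26.8, 52.2 and 61.1 CPM in D1_CS and 33.9, 125 and 310 in D2_CS. The D2_CS libraries ran across and far above the D1_CS range, with D2_CS 1 on top. The difference was -2.02 ± 0.541 (adjusted p = 0.0204). It was -1.89 ± 0.554 for Atp5b, -1.84 ± 0.521 for Cox4i1, -1.76 ± 0.441 for Sdhb, -1.53 ± 0.442 for Ndufs3, -1.36 ± 0.396 for Ndufs1 and -1.32 ± 0.408 for Sdha. Sdhb was highest in D2_CS 6 at 722.5 CPM, from 19 counts, and next in D2_CS 9 at 100.1 CPM, from 2 counts. Cox7a1 (-3.94 ± 0.656) was lost without D2_CS 4, at -0.04, and so were Cox4i1 (-1.74) and Sdha (-1.41), and the count was then 5. It was 0 without the quality-failing libraries and 0 with voom, which put the median at -1.17 and -0.05. D2 neuron markers were lower in D1_CS for 6 of 6, and 3 of 6 astrocyte and 3 of 6 oligodendrocyte markers were lower as well. The summed astrocyte markers ran from 117 to 318 CPM in D1_CS and from 50.1 to 1725 in D2_CS. The low end in D2_CS is the size of a single count in D2_CS 9, where 1 count gives 50.05 CPM. It cannot be read as a measured level. D2_CS 6 and D2_CS 9, both with very few counts, were part of this fit and of the D2_CS ranges. The median background share was 63.4% in D1_CS and 35.4% in D2_CS. The part of the markers and of the background share in the difference was not tested.

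After repeated cocaine and a cocaine challenge (CC) the sign was the opposite: 78 of 85 members had a fitted difference above 0, with a median of 1.02, but 0 were called by edgeR, where 0.0204% of all genes were called. An unadjusted p below 0.05 was found for 66 members, and DESeq2 called 18 and voom 42. The shares of all genes for these counts are not given here. The difference was 1.73 ± 0.503 for Ndufb10, 1.71 ± 0.513 for Ndufb11, 1.59 ± 0.462 for Ndufa13 and 1.55 ± 0.461 for Uqcrfs1 (adjusted p = 0.181 for each). Without D1_CC 1 and D1_CC 3 the median was 0.17.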

How the data were processed

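RNA of sorted nuclei (total RNA, SMARTer stranded total RNA kit, per the labels' protocols) was read in 75 libraries. The authors deposited a table of raw counts per gene for 55401 identifiers and a table of FPKM values. Per the submitters' processing notes, featureCounts, DESeq2 and the mm10 build were used, while versions, the aligner, the annotation and how strand was treated are not given in the sources used here. FPKM values, as deposited, served only to recover the gene lengths, which equal the whole gene span for 54743 of 55062 identifiers. Symbols came from GENCODE M21, which matched 54349 identifiers exactly and 55141 without the version.

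Counts were tested with edgeR 4.0.16 (R 4.3.3; TMM scaling, filterByExpr, quasi-likelihood test, Benjamini-Hochberg adjusted p below 0.05 over all genes), with 1 fit per line (37721 genes in D1 and 36090 in D2) and 1 fit of all groups (39250 genes) for D1 minus D2. The filter left out Cox6a2 in D1 and Cox6a2 and Cox6b2 in D2. CPM is the count per 1000000 counts of the library. Total counts ran from 19825 to 34870414, so counting error is small in most libraries: the 95% Wilson interval of the summed level was 5204 to 5275 CPM in D1_CC 1 and 2040 to 3277 in D2_CS 6, for counting error only. Background came from 1466 receptor genes spanning 12939 kb. DESeq2 1.42.0 and limma 3.58.1 (voom with library weights) served as alternatives, and the fits were tested on simulated data. The members and gene lists were chosen with earlier results of these data known. Named genes were up to 8 members with the largest rise and 8 with the largest fall among those that passed, the 5 with the smallest p where fewer than 3 passed, a set list of core subunits and of isoforms, the 3 highest per length in each complex, and up to 3 genes of each other list that passed in each direction. Another 4 alternatives that leave out libraries were chosen after seeing the data. Values of 1 member and 1 marker gene are not reported here, though counts and sums include them. No library pair had identical counts.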

Additional observations from a re-analysis of the deposited data

Results flagged for a closer look

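Among 112 checks of 1 measure in 1 group of 4 to 10 libraries, 10 found a library far from the rest of its group by Dixon's criterion. Chance flags about 1 in 20 groups for a single measure, but these checks are not independent, since sums and their parts were checked apart. The criterion can miss 2 libraries that are high together, and D1_CC 1 and D1_CC 3 were not flagged. D2_CC 3 stood apart with a summed member level of 2833 CPM (next 1987), with 1005 CPM for complex I (next 739.8), 1031 CPM for complex V (next 694.2), 251.9 CPM for Atp5a1 (next 146.2) and 36.08 CPM for Ndufb10 (next 18.98). D2_CS 1 stood apart with 49.07 CPM for Ndufb10 (next 19.47) and 171.8 CPM for Sdha (next 100.9). D1_SC 7 had 34.55 CPM for Cox4i1 (next 15.67). D2_CS 4 had 98.02 CPM for Cox7a1 (next 2.055). D2_CS 6, with 26297 counts in all, had 874.6 CPM for complex II (next 287.6).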

How the results depend on the processing

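Counts of members called by edgeR moved with the settings. The shares of all genes called under these settings are not given here. In D1 CC minus CS (61) the count was 17 with DESeq2's size factors (RLE) and 0 with library totals, without libraries failing the quality check, with the background share as covariate, without both D1_CC 1 and D1_CC 3, and without D1 libraries holding more Drd2 than Drd1. It was 59 without the count filter, 54 with DESeq2, 51 with voom, 59 with the replicate block and 70 without libraries under 1000000 counts. In D1 CC minus SC (4) it was 11 with library totals, 1 without the filter, 25 with DESeq2, 13 with voom, 58 with the covariate, and 0 without failing libraries, with the replicate block, without libraries under 1000000 counts and without D1 libraries holding more Drd2. In D1 SC minus SS (1) it was 0 with library totals, with the covariate, without failing libraries, without libraries under 1000000 counts and without D1 libraries holding more Drd2, and 2 without D1_CC 1 and 3. In the D1 interaction (0) it was 21 with RLE, 26 with library totals, 51 with DESeq2 and 53 with the covariate. Voom called 79 in D1 CS minus SS, 69 in D2 SC minus SS, 69 in D2 CS minus SS, 74 in D2 CC minus SS, 14 in the D2 interaction, 59 between lines in SC and 42 in CC, where edgeR called 0 or, in D2 CS minus SS, 1. The single calls of D2 CS minus SS and D2 CC minus CS became 0 with RLE, library totals, DESeq2, without failing libraries and with the replicate block, and that of D2 CC minus CS also with voom. Between lines in CS (9) the count was 2 with RLE, library totals, DESeq2 and the covariate, 0 with voom, without failing libraries and without D1 libraries holding more Drd2, 5 with the replicate block and without D2_CS 4, 20 without D1_CC 1 and 3, and 18 without libraries under 1000000 counts. Between lines in CC (0) it was 18 with DESeq2 and 46 with the covariate. Leaving out 1 library at a time gave 0 to 70 in D1 CC minus CS, 0 to 31 in CC minus SC, 0 to 2 in SC minus SS, 0 to 44 in the interaction, 0 to 3 in D2 CC minus CS, 0 to 1 in D2 CS minus SS and 0 in the other comparisons within a line; between lines it was run for D2_CS 4 alone. The cause was not tested.

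Of the 79 named changes, voom reversed the sign of 10, DESeq2, the covariate and library totals 2 each. With voom the log2 change was 0.0037 for Cox7b2 in D1 CC minus CS; -0.45, -0.31 and -0.13 for Ndufb10, Ndufs5 and Sdhd in D1 CC minus SC; -0.041, -0.15 and -0.064 for Atp5b, Sdha and Atp5a1 in D1 CC minus SS; -0.81 for Sdhb in D2 CS minus SS; 0.059 for Sdhb in D2 CC minus CS and 0.018 for Sdhb in D1 minus D2 in CS. Cox7b2 in D1 CC minus CS was 0.0134 without failing libraries, 0.10 with the covariate and 0.0665 without D1_CC 1 and 3. In D1 SC minus SS library totals gave -0.015 for Ndufs4 and -0.051 for Ndufs1, the covariate -0.33 for Ndufs1, and D1 libraries with more Drd1 than Drd2 gave -0.26 for Ndufa4l2. DESeq2 gave 0.056 for Cox7a1 in D2 CC minus CS and 0.20 for Cox7a1 in D1 minus D2 in CS.

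Replicate numbers were treated as shared names only. Same-numbered libraries had a median correlation of -0.028 in D1 (-0.81 to 0.81) and 0.0082 in D2 (-0.81 to 0.73). For libraries of other numbers the medians were 0.014 and -0.0078. Of the libraries, 5 of 37 and 2 of 38 correlated best with their own number. A median over so wide a range cannot tell whether some numbers mark libraries handled together.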
